A study of Mus musculus with 33 samples.

Results

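The genes described are Myc and 5 genes of ribosome biogenesis (Wdr43, Gnl3, Nop58, Polr1a and Gtpbp4), together with 1 transcribed stretch downstream of Myc at chr15:62265271-62268790 (GRCm38). They were taken from a list of names and a position, and make up 6 of 10750 gene values and 1 of 49745 numbered regions in the tables. These, and the gene lists used below, were chosen with earlier results of these data known. Shares over all gene values, regions or targets are therefore given for scale and test nothing. All 6 genes and the stretch passed the filter on low counts, which left 4510 gene values and 61074 single targets for testing. RNA came from CH12, a mouse B lymphoma line that switches its antibody class in culture. The groups were 2 lines without ZMYND8 (KO1 and KO2), the parental wild type (WT) and a WT clone, each grown for 48 h activated or unactivated. Each of these 8 groups held 3 cultures, which the labels call biological repeats without saying how separate they were, so the p-values measure the spread between these cultures. A genotype stands on 2 lines only, and n = 6 below counts its cultures in 1 state, not lines. The activating stimulus is not named, and neither is how or where Zmynd8 was disrupted. ChIP-seq and GRO-seq samples, 9 in number, were not analysed here.

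MYC is a transcription factor that pairs with MAX on E-box DNA and raises the output of genes for growth and metabolism. Among its best known targets are the nucleolar factors that transcribe ribosomal DNA, trim the ribosomal RNA precursor and fold it into the small and large subunits. Myc itself is controlled from distal enhancers, several of them in or beyond the neighbouring long noncoding RNA gene Pvt1, and in mouse plasmacytomas and human Burkitt lymphoma it is often joined to immunoglobulin loci. ZMYND8 recognises acetylated and methylated histones and is found at enhancers.

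What stands for a gene here is the RNA counted in numbered regions lying wholly inside its span, so each value samples a small piece of it. Whether a region is exonic or intronic, and on which strand, is not known. For Myc (chr15:61985341-61990361) it was 1 region of 688 bases at chr15:61989336-61990023, 13.7% of the gene's span. Wdr43 was read from 1 region at chr17:71617743-71618474, Gnl3 from 1 at chr14:31015328-31015976 and Gtpbp4 from 1 at chr13:8984786-8985335. Nop58 was read from 1 region at chr1:59687452-59688041. Its second region, at chr1:59703929-59704490, also touches the snoRNA gene Gm26287 and was not summed. Polr1a was the sum of 4 regions with 339 counts over all 24 libraries, the thinnest measurement of the set, against 20826 counts for Gtpbp4 and 13170 for Myc. The distal stretch is 3520 bases long, starts 274909 bases after the end of Myc and 5055 bases after the end of Pvt1, and lies in no annotated gene. The next gene, the lncRNA Gm41333, begins 400 kb further on.

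Promoter sequence was at hand for 5 of the 6 genes (RefSeq, GRCm38.p6, 250 bases before to 50 after each listed start). It is shown for the genes with an E-box match and for Gnl3, whose level ran closest to that of Myc. Capitals mark the canonical E-box CACGTG, a palindrome, or its variant CACGCG read on either strand, here as CGCGTG. The 2 strand readings of the variant can overlap each other, and each match was counted.
Wdr43, chr17:71616220-71616249, plus strand: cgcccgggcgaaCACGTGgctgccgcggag
Gtpbp4, chr13:8996117-8996162, minus strand: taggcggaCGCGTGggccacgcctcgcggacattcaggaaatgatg
Gnl3, chr14:31019132-31019281, minus strand: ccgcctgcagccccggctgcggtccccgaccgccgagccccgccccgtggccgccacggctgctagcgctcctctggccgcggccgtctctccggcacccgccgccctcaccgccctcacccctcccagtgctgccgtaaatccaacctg
In Wdr43 the CACGTG match begins 17 bases after the listed start, and in Gtpbp4 the CGCGTG match begins at -142 from it. The listed starts of Wdr43 and Gtpbp4 lie inside the spans of these genes. All bases printed for Wdr43 lie within its span, which begins at chr17:71616178. The bases printed for Gtpbp4 stop at the edge of its span (chr13:8996116), so they do not reach the listed start. CACGTG occurred in 7.15% and the variant in 9.27% of 32851 mouse promoters of the same length, and in 1 of the 5 genes each; a match describes the letters only. Gnl3, Nop58 and Polr1a held neither in this window.

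Sequencing depth was 29.0 to 34.1 M estimated counts per library (median 32.1 M), of which numbered regions took 3.78% to 5.48%. Of 15 listed B cell markers 10 had a region, and their summed level ran from 62.3 to 86.8 CPM, counts scaled to the size of the library, in activated KO libraries, 44.7 to 70.3 in activated WT, 43.8 to 62.8 in unactivated KO and 26.96 to 57.6 in unactivated WT. T cell markers (5 of 14 with a region), myeloid markers (3 of 13) and fibroblast and epithelial markers (4 of 10) never summed above 1.95, 1.23 and 1.71 CPM. The last list was higher after activation, through Pdgfrb, and its part in the results was not tested. RNA from regions inside Zmynd8 was not lower in the KO lines: activated cultures averaged 3.65 CPM in KO1, 3.32 in KO2, 2.28 in parental WT and 2.58 in the WT clone. It was called higher there in KO by edgeR (log2 change 0.52, adjusted p = 0.0418), as were 6.34% of gene values. Unactivated cultures averaged 1.79, 2.01, 1.42 and 1.63 CPM in the same order, a log2 change of 0.32 that was not called (adjusted p = 0.335). Since the position of the disruption is not given in the sources used here, these regions do not check the knockout.

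Myc fell on activation in every line. In activated KO1 cultures the Myc region had 10.9, 10.4 and 9.48 CPM, and in activated KO2 cultures 9.65, 10.3 and 11.3. Activated parental WT cultures had 8.96, 13.2 and 9.82 CPM and those of the WT clone 10.4, 7.36 and 9.96. Unactivated cultures had 20.0, 33.4 and 20.0 CPM in KO1, 20.0, 26.1 and 26.0 in KO2, 23.1, 19.8 and 32.6 in parental WT, and 18.1, 35.9 and 22.9 in the WT clone. No activated culture reached the lowest unactivated one, in any line. The spread between cultures in CPM was also narrower after activation, with an SD of 0.690 in KO lines and 1.90 in WT lines, against 5.36 and 7.16 without it. The means were lower as well (10.3 and 9.94 CPM against 24.2 and 25.4), so these SDs do not compare spread relative to the level. In bulk RNA, fewer cells expressing a gene and less RNA per cell cannot be told apart.

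**Figure D1:**
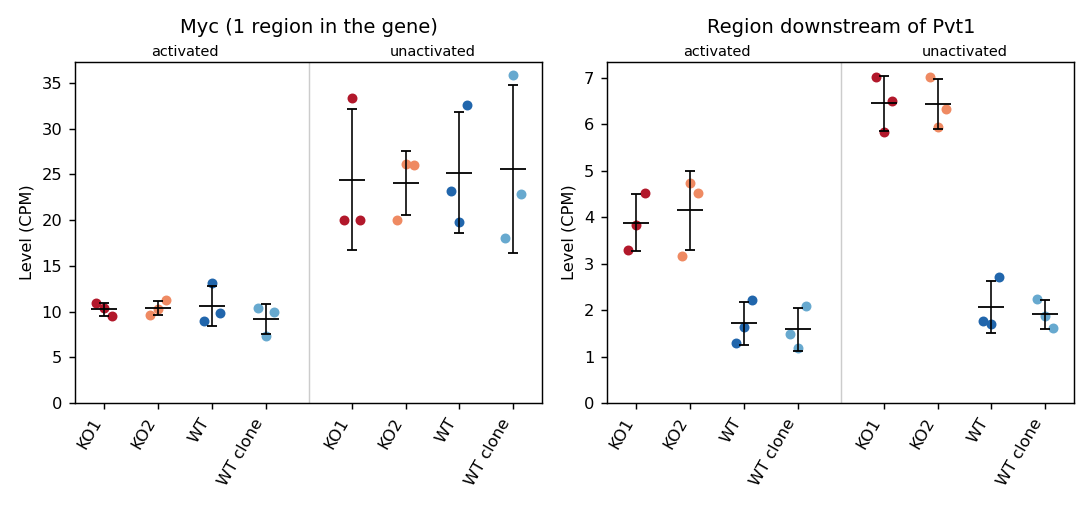
Level in CPM of the Myc region (left) and of the distal stretch downstream of Pvt1 (right) in each of the 24 libraries, by line and state; points are libraries and bars are the mean ± SD of 3 cultures. Activated cultures lie between 7.36 and 13.2 CPM for Myc, below all unactivated ones; the distal stretch lies above all WT libraries of the same state in each of the 12 KO libraries.

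The log2 change of Myc on activation was -1.23 (SE 0.18) in the KO lines, with adjusted p = 7.37e-06, and -1.36 (SE 0.18) in the WT lines, with adjusted p = 2.24e-06. A fall without overlap was seen in 2.26% of gene values in KO lines and 2.22% in WT lines. Taken line by line, it was -1.25 in KO1, -1.21 in KO2, -1.24 in parental WT and -1.47 in the WT clone, called in each at adjusted p between 0.000205 and 0.00164; 2.55%, 2.11%, 2.59% and 2.99% of gene values were called lower in these lines. The activation effect in KO minus that in WT was 0.13 (95% interval -0.41 to 0.66; adjusted p = 0.918). Changes between the lines of a genotype were no larger than their error. All p-values are from edgeR's quasi-likelihood test with Benjamini-Hochberg adjustment over all gene values, or over all targets for single regions.

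Loss of ZMYND8 left no detected difference in Myc in either state. Activated cultures averaged 10.3 ± 0.690 CPM in KO lines and 9.94 ± 1.90 in WT lines (SD, n = 6 cultures from 2 lines each), a log2 change of 0.06 with a 95% interval of -0.32 to 0.44 and adjusted p = 0.925. Without activation the levels were 24.2 ± 5.36 CPM in KO lines and 25.4 ± 7.16 in WT lines, a log2 change of -0.07 (interval -0.44 to 0.31; adjusted p = 0.902). The highest of these WT values were 32.6 CPM in parental WT replicate 3 and 35.9 in WT clone replicate 2. These were also the libraries least like their own group (median r 0.916 and 0.915). Without the first the change was 0.05 and without the second 0.09, not called.

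KO cultures had more RNA from the distal stretch, with or without activation. Activated KO1 cultures had 3.30, 3.84 and 4.52 CPM and activated KO2 cultures 3.18, 4.74 and 4.53, against 1.30, 1.63 and 2.23 in parental WT and 1.48, 1.19 and 2.09 in the WT clone. Unactivated KO1 cultures had 7.02, 5.84 and 6.49 CPM and unactivated KO2 cultures 7.01, 5.95 and 6.34, against 1.78, 1.70 and 2.71 in parental WT and 2.23, 1.88 and 1.62 in the WT clone. In each state the lowest KO culture stood above the highest WT culture, and KO1 and KO2 lay on top of each other (log2 difference of KO2 over KO1 0.09 activated and -0.01 unactivated, neither called).

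The log2 change of the stretch, KO over WT, was 1.28 (SE 0.18, adjusted p = 9.42e-05) in activated cells, with means of 4.02 ± 0.677 CPM in KO lines and 1.65 ± 0.422 in WT lines. Without activation it was 1.70 (SE 0.18, adjusted p = 3.68e-06), with means of 6.44 ± 0.505 CPM in KO lines and 1.99 ± 0.413 in WT lines. For scale, 5.67% of tested regions were called higher in KO in activated cells and 3.75% in unactivated cells, and 2.55% and 2.05% of all targets showed no overlap of the 6 and 6 libraries in that direction.

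Activation lowered the stretch in the KO lines, by a log2 change of -0.68 (SE 0.18, adjusted p = 0.0089), with every activated KO culture below every unactivated one. In that comparison 3.52% of regions were called lower and 6.14% of targets were lower without overlap. In the WT lines the change was -0.27 (SE 0.18) and was not called (adjusted p = 0.345), and activated and unactivated cultures overlapped. The difference between these effects, -0.42 (95% interval -0.95 to 0.11), was not called either (adjusted p = 0.639). Neither KO line alone carried the call: KO1 gave -0.73 with adjusted p = 0.0714 and KO2 -0.63 with adjusted p = 0.129. Scaled on regions alone, the change in WT was -0.50 and was called (adjusted p = 0.0219).

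The stretch was not alone. Of 87 regions within 2 Mb of the Myc start, 32 could be tested. In activated cells 7 of them were called higher in KO, and in unactivated cells 6 were called higher and 2 lower (2.64% of all tested regions were lower there). The nearest and the farthest of the 7 that were higher in either state lay 193 and 342 kb downstream of the Myc start. Between these bounds, which were set by the calls themselves, 11 regions were tested. Of the 7, 6 were called in both states. One of them was the neighbouring region chr15:62271179-62274709, with 3.05 ± 0.580 CPM in activated KO lines and 1.54 ± 0.240 in activated WT lines, a log2 change of 0.98 (adjusted p = 0.000232). In unactivated cells it had 4.99 ± 0.377 CPM in KO lines and 1.51 ± 0.273 in WT lines, a log2 change of 1.73 (adjusted p = 3.43e-07). It shared the pattern on activation too, with a log2 change of -0.71 in KO lines (adjusted p = 0.00161) and 0.04 in WT lines (adjusted p = 0.923). The difference between these effects, -0.75 (SE 0.21), was not called by edgeR (adjusted p = 0.112).

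Still further along, the region chr15:62286672-62287945 had 0.867 ± 0.437 CPM in activated KO lines and 0.240 ± 0.121 in activated WT lines (log2 change 1.76, adjusted p = 0.00105). In unactivated cells its change was 0.89 and missed the threshold (adjusted p = 0.0769). This region fell on activation in both genotypes, by a log2 change of -1.34 in KO lines and -2.21 in WT lines. Inside Pvt1, 14 regions were tested. A pair of neighbours at chr15:62177536-62178478 and chr15:62180942-62182299 was higher in KO in both states, with log2 changes of 1.27 and 0.80 in activated cells and 1.69 and 1.34 in unactivated cells. Another pair, at chr15:62139006-62139601 and chr15:62239833-62240619, was lower in unactivated KO cells (-2.07 and -1.19), from means under 0.4 CPM, and its changes in activated cells were 0.03 and 0.14, not called. Called regions inside Pvt1 thus went both ways in unactivated cells.

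**Figure D2:**
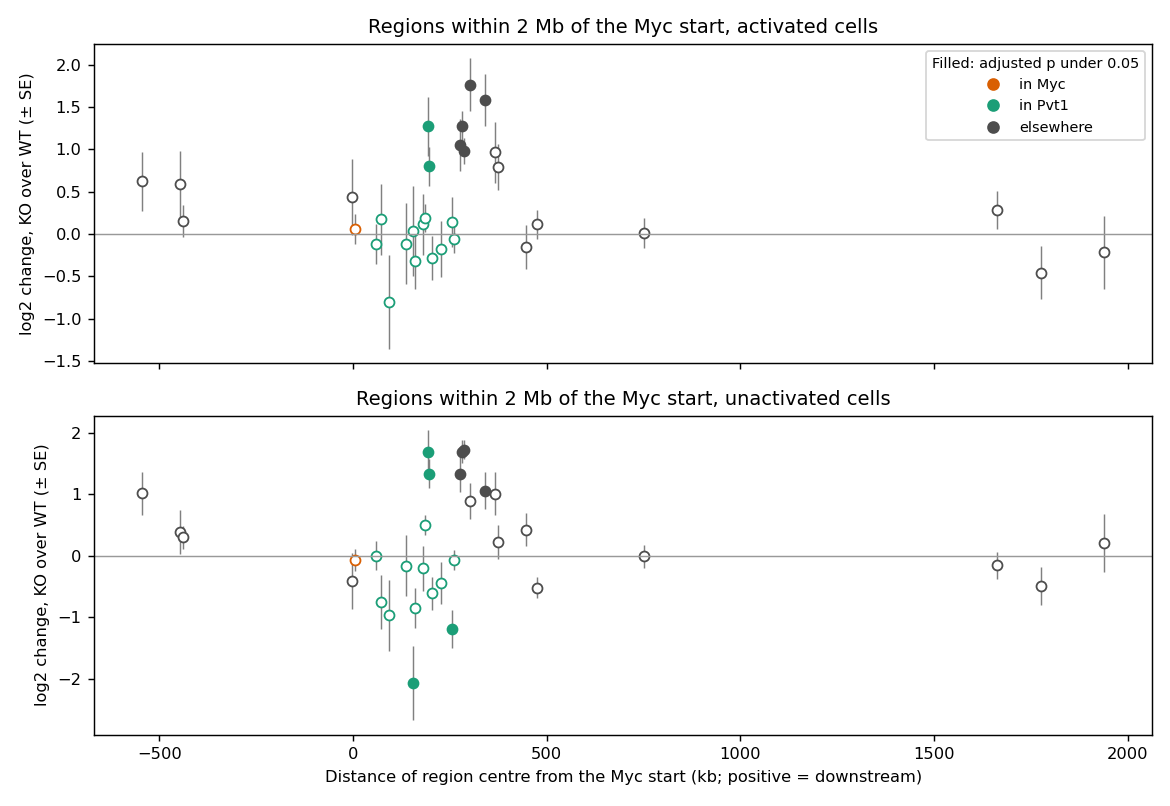
Log2 change, KO lines over WT lines, with its SE, of the 32 tested regions against the distance of their centre from the Myc start in kb, in activated (top) and unactivated (bottom) cells; filled points have adjusted p under 0.05. The 7 regions called higher lie between 193 and 342 kb, and the Myc region itself sits near 0 in both panels (0.06 and -0.07).

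Among the ribosome biogenesis genes, Wdr43, Gnl3 and Gtpbp4 were called lower on activation with both WT lines averaged. None of them was called by edgeR in both WT lines taken alone. In parental WT the log2 changes were -0.832 for Wdr43 (adjusted p = 0.0392), -0.529 for Gnl3 (0.0595) and -0.998 for Gtpbp4 (0.0814). In the WT clone they were -0.7 (0.0891), -0.696 (0.0112) and -1.137 (0.041) in the same order. In KO lines Wdr43 and Gtpbp4 were also called lower, but Gtpbp4 was at -0.05 in KO1 and the call of Wdr43 was lost without most single libraries. Of the 6 genes including Myc, 3 were called lower in KO lines and 4 in WT lines, where 4.24% and 5.41% of all gene values were called lower. In that same comparison the median log2 change of all gene values was 0.28 in KO lines and 0.19 in WT lines, so the called genes went against the sign of the median.

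Gnl3, nucleostemin, a nucleolar GTPase that takes part in large-subunit assembly, ran closest to Myc. Activated cultures had 3.04, 3.87 and 3.15 CPM in KO1, 3.40, 4.28 and 3.50 in KO2, 3.61, 3.05 and 2.82 in parental WT and 2.90, 2.83 and 2.85 in the WT clone. Unactivated cultures had 3.37, 4.24 and 4.53 CPM in KO1, 5.24, 4.39 and 4.47 in KO2, 3.98, 5.17 and 4.54 in parental WT and 4.83, 4.38 and 4.67 in the WT clone. The states separated without overlap in WT lines but not in KO lines, where unactivated KO1 replicate 1 lay among the activated cultures and activated KO2 replicate 2 above unactivated KO1 replicate 2. Its log2 change was -0.30 (SE 0.13, adjusted p = 0.0794) in KO lines and -0.61 (SE 0.13, adjusted p = 0.000808) in WT lines, and the difference of 0.31 was not called (adjusted p = 0.567).

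Wdr43, a subunit of the small-subunit processome that assembles on nascent ribosomal RNA, had 0.896 to 1.46 CPM (median 1.03) in activated KO lines and 0.547 to 1.17 (median 0.797) in activated WT lines. In unactivated cells it had 1.19 to 1.71 CPM (median 1.56) in KO lines and 1.02 to 1.70 (median 1.46) in WT lines. The states overlapped in both genotypes with their 2 lines pooled. Within single lines they overlapped in the WT clone, but not in KO1, KO2 or parental WT. The log2 changes in KO1 and KO2 alone were -0.49 and -0.51, neither called by edgeR (adjusted p = 0.223 and 0.196). Wdr43 changed by -0.50 (SE 0.18, adjusted p = 0.0396) in KO lines and -0.77 (SE 0.19, adjusted p = 0.00331) in WT lines. The call in KO lines rests on 30 to 54 counts per library and was lost when any of 9 of the 12 KO libraries was left out (log2 change -0.51 to -0.45, adjusted p 0.0606 to 0.0958). It held without KO1 activated replicate 3, KO2 activated replicate 2 or KO1 unactivated replicate 1, and was lost with no filter on low counts (adjusted p = 0.056), with cultures summed per line (0.0504) and when adjusted over all targets (0.0777).

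Gtpbp4, a nucleolar GTPase of the large-subunit precursor, known as Nog1 in yeast, was the member with the widest range, 19.1-fold between the highest and the lowest library. Activated cultures had 30.5, 24.9 and 24.3 CPM in KO1, 4.73, 9.93 and 3.53 in KO2, 35.4, 20.2 and 15.2 in parental WT and 21.4, 25.6 and 19.6 in the WT clone. Unactivated cultures had 30.8, 25.9 and 25.9 CPM in KO1, 12.4, 28.7 and 12.3 in KO2, 47.6, 67.5 and 26.3 in parental WT and 43.3, 39.9 and 63.1 in the WT clone. KO2 was low in 5 of its 6 cultures, and KO1 sat near 25 to 31 CPM in both states.

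On activation Gtpbp4 changed by -0.80 (SE 0.26, adjusted p = 0.0222) in KO lines and -1.07 (SE 0.26, adjusted p = 0.0032) in WT lines. The KO average joined unlike lines: KO1 changed by -0.05 (adjusted p = 0.945) and KO2 by -1.55 (adjusted p = 0.0056), a difference of -1.499 that had an unadjusted p of 0.00795 and an adjusted p of 1. Leaving out KO1 activated replicate 3, KO2 activated replicate 1 or 3, or KO2 unactivated replicate 2 ended the call in KO lines, with log2 changes between -0.78 and -0.54. With the cultures of each line summed, the changes were -0.51 in KO lines (adjusted p = 0.486) and -1.08 in WT lines (adjusted p = 0.129), neither called. Adjusted over all targets, the call was lost in KO lines (adjusted p = 0.0586) and held in WT lines (0.0118).

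Gtpbp4 was also the only gene of the 6 called between genotypes, where 2.33% of gene values were lower in KO in activated cells and 3.1% in unactivated cells. In activated cells KO lines averaged 16.3 ± 11.6 CPM and WT lines 22.9 ± 6.98, a log2 change of -0.85 (SE 0.26, adjusted p = 0.04). With KO1 alone that change was 0.21 (adjusted p = 0.876), and KO2 stood 4.38-fold below KO1 in activated cells (log2 change -2.13, adjusted p = 0.00948), where 0.0887% of gene values were called lower. The call was also lost without any of 8 of the 12 activated libraries, all 3 of KO1, KO2 replicates 1 and 3, parental WT replicate 1, and WT clone replicates 1 and 2, with log2 changes between -0.91 and -0.64, and with DESeq2 (adjusted p = 0.0655). In unactivated cells KO lines averaged 22.7 ± 8.21 CPM and WT lines 47.9 ± 15.3, a log2 change of -1.11 (SE 0.26, adjusted p = 0.00722), with parental WT replicate 3 overlapping KO1 and KO2 cultures. With KO1 alone it was -0.80 (adjusted p = 0.217), and with the cultures of each line summed to 1 value it was -1.06 (adjusted p = 0.254), neither called. Adjusted over all targets, the call between genotypes was lost in activated cells (adjusted p = 0.0999) and held in unactivated cells (0.0212).

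Nop58, a core protein of the box C/D particles that methylate ribosomal RNA, had 0.699 to 1.18 CPM (median 1.03) in activated KO lines and 0.471 to 0.850 (median 0.778) in activated WT lines. In unactivated cells it had 0.786 to 1.69 CPM (median 1.17) in KO lines and 0.592 to 1.45 (median 0.877) in WT lines. Its changes on activation, -0.30 in KO lines and -0.35 in WT lines, were not called (adjusted p = 0.322 and 0.296). The region left out because of Gm26287 gave -0.31 and -0.28, also not called.

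Polr1a, the largest subunit of RNA polymerase I, had 0.241 to 0.762 CPM (median 0.416) in activated KO lines and 0.213 to 0.494 (median 0.308) in activated WT lines. In unactivated cells it had 0.406 to 0.558 CPM (median 0.471) in KO lines and 0.362 to 0.667 (median 0.522) in WT lines. With 7 to 24 counts per library, changes of -0.11 in KO lines (adjusted p = 0.799) and -0.63 in WT lines (adjusted p = 0.0983) were not called. The 95% intervals at this depth were -0.66 to 0.44 in KO lines and -1.20 to -0.06 in WT lines.

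**Figure D3:**
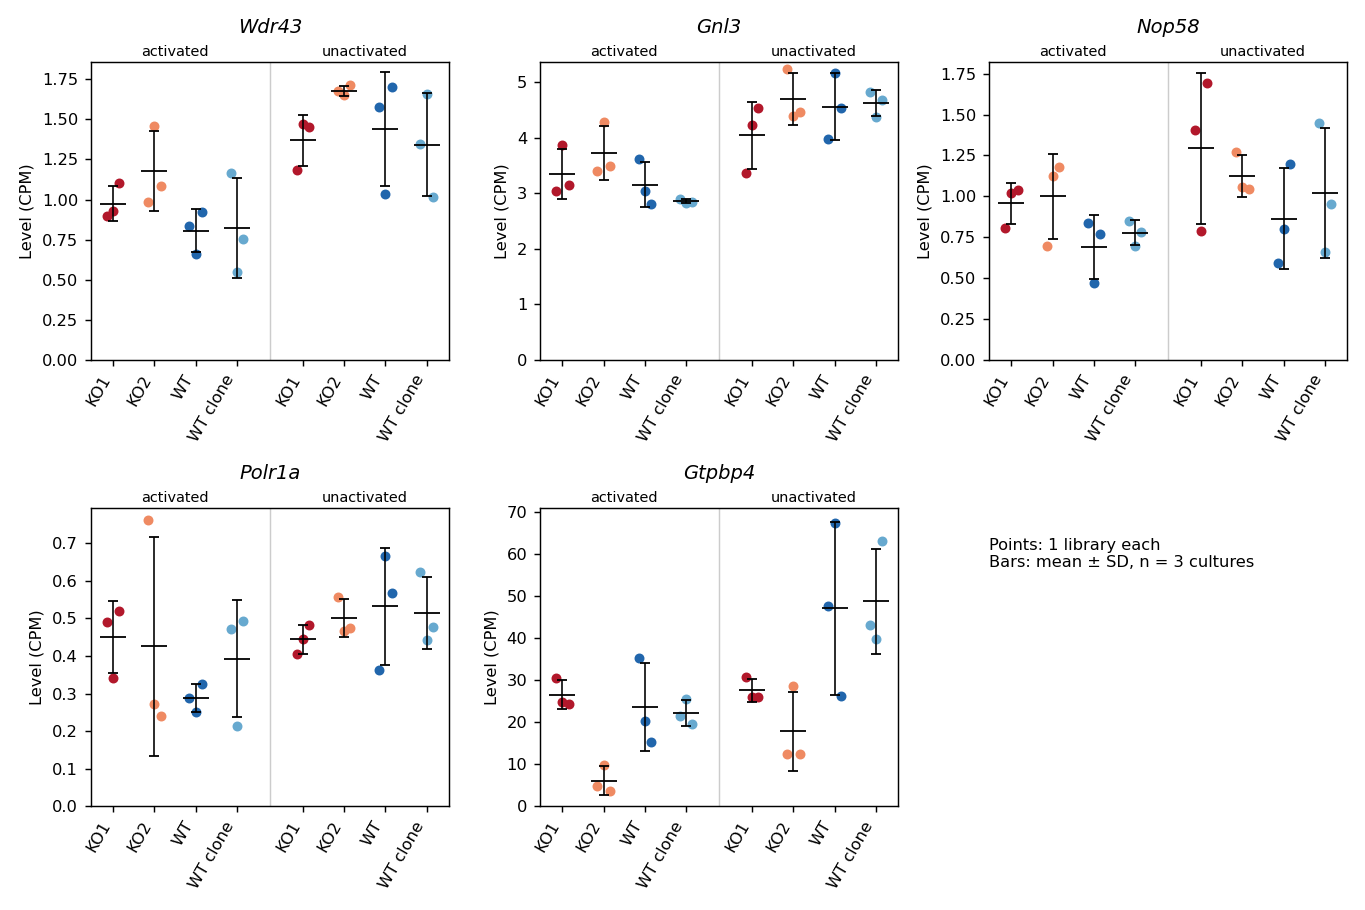
Level in CPM of the 5 ribosome biogenesis genes in each library, by line and state; points are libraries and bars the mean ± SD of 3 cultures. Gnl3 separates by state in both WT lines, while Gtpbp4 in activated KO2 cultures (3.53 to 9.93 CPM) lies below all other groups.

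Between genotypes, Wdr43, Gnl3, Nop58 and Polr1a gave no call by edgeR. In activated cells their log2 changes, KO over WT, were 0.40, 0.23, 0.41 and 0.37, with adjusted p between 0.258 and 0.544; that of Wdr43 had an unadjusted p of 0.0476. In unactivated cells the changes were 0.13, -0.08, 0.36 and -0.15, with adjusted p between 0.413 and 0.837. The Nop58 region left out because of Gm26287 had the other sign, at -0.09 in activated and -0.07 in unactivated cells, not called. For none of the 6 genes was a difference in the activation effect between genotypes called (0.554% of all gene values were), the smallest unadjusted p among them was 0.101, and DESeq2 called none of the 4 it gave an adjusted p for.

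**Figure D4:**
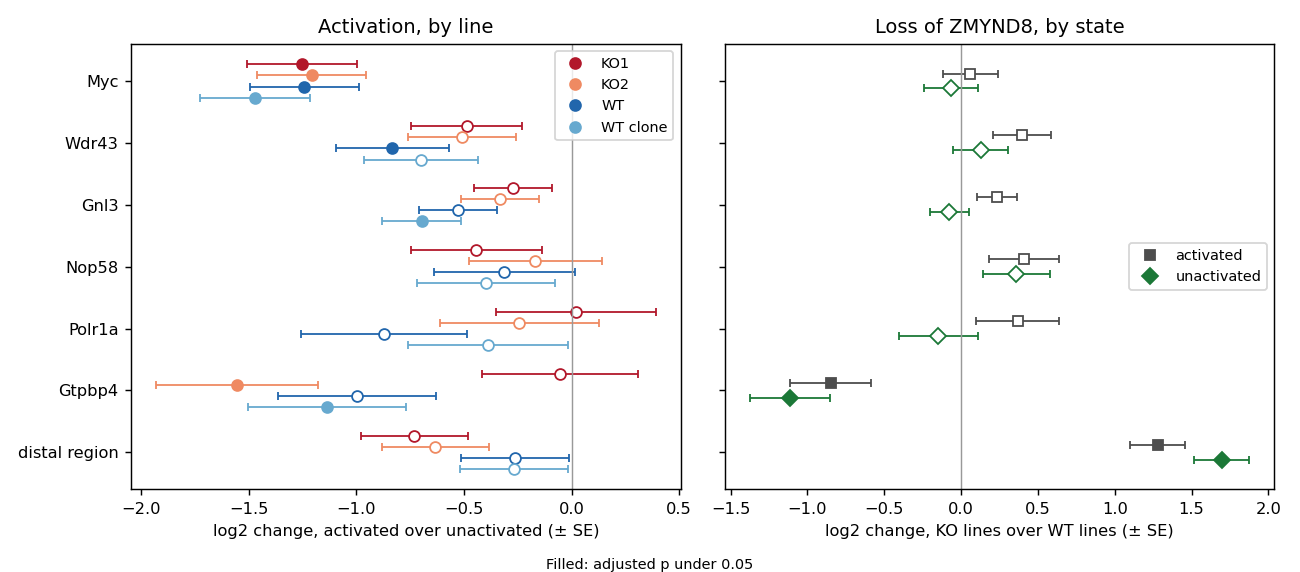
Left, log2 change on activation with its SE for each line; right, log2 change KO over WT with its SE in activated and unactivated cells, for the 6 genes and the distal stretch; filled symbols have adjusted p under 0.05. Myc lies between -1.47 and -1.21 in all 4 lines on the left and near 0 on the right, where the distal stretch lies at 1.28 and 1.70.

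Per kilobase of region, the mean level over all libraries ran in the order Gtpbp4 (49.9 CPM per kb), Myc (25.4), Gnl3 (5.98), Wdr43 (1.64), Nop58 (1.64), the distal stretch (1.00) and Polr1a (0.184). In KO2 the first places were the other way round, with Gtpbp4 at 11.03 and Myc at 15.1 CPM per kb in activated cultures and Gtpbp4 at 32.4 and Myc at 34.9 in unactivated ones, the last pair of values within the spread between cultures. Wdr43 and Nop58 are neighbours whose levels did not differ beyond the spread between libraries. Across the 8 group means of log2 level, and as a description only since groups share lines and states, Myc correlated at r = 0.92 with Gnl3, 0.88 with Wdr43, 0.75 with Polr1a, 0.58 with Nop58 and 0.51 with Gtpbp4. With the distal stretch r was 0.31, which ranked 59th of 221 gene values of at least 5 CPM.

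The 5 gene values most like Myc over the 8 groups, of 220, were Stk17b (r = 0.97), Slc7a1 (0.94), Zfp978 (0.94), Efcab12 (0.94) and B3gnt2 (0.93). Stk17b encodes a serine/threonine kinase first described in lymphocyte apoptosis and Slc7a1 a carrier of cationic amino acids. All 5 were called lower on activation in WT lines, with log2 changes between -0.97 and -0.60, and 4 of them in KO lines; B3gnt2 was at -0.75 there with adjusted p = 0.0607. Those most like the distal stretch were Glb1 (r = 0.97), Il5ra (0.96), Prkce (0.92), Nfatc1 (0.89) and Plcd3 (0.88), all 5 called higher in KO, activated and unactivated. Glb1, lysosomal beta-galactosidase, was highest with 1.504 in activated and 1.97 in unactivated cells. These genes were picked for their likeness, so their changes describe the pattern and are no test of it.

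The wider list of ribosome biogenesis genes had a negative median change on activation in both genotypes. Of 159 listed genes in 4 groups (RNA polymerase I, small-subunit processome and maturation, large-subunit maturation, and box C/D and H/ACA particles with nucleolar chaperones), 51 had a region and 42 were tested, the 5 above included. On activation in KO lines 2 were called higher and 6 lower, with a median log2 change of -0.11 against 0.28 for all gene values, of which 24.1% were called higher and 4.24% lower. At an unadjusted p under 0.05 these were 3 and 10, and DESeq2 gave 0 and 5. The KO count depended on the setting: leaving out 1 library gave 0 to 2 higher and 2 to 6 lower, summed cultures 2 and 2, no filter 0 and 3, and scaling on gene values alone 0 and 16. In WT lines 0 were called higher and 8 lower by edgeR, with a median of -0.28 against 0.19; at an unadjusted p under 0.05 these were 1 and 12, and DESeq2 gave 0 and 8. In WT lines the calls over the whole table were 16.4% higher and 5.41% lower. With parental WT alone 1 was lower, with the WT clone alone 3, and with scaling on gene values alone 16.

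Outside the 5 genes, the lower ones in both genotypes were Rsl24d1, a large-subunit maturation factor (-0.96 in KO lines and -0.97 in WT lines), and Ddx21, a nucleolar RNA helicase (-0.61 and -0.67). In KO lines alone the test called Ruvbl1, an ATPase of the particle assembly complex (-0.68), and Krr1, a processome component (-0.56), lower, and Taf1b, of the RNA polymerase I initiation factor SL1 (0.87), and Efl1, a GTPase that releases eIF6 from the large subunit (0.75), higher. In WT lines alone it called Pdcd11 (-0.74), Utp4 (-0.66) and Ddx56 (-0.66) lower. Whether such genes differ between genotypes is another test, and there 0 of 42 were called by edgeR and 0 by DESeq2, with 3 at an unadjusted p under 0.05. Between genotypes, activated cells had 1 call, Gtpbp4, and unactivated cells had 2, Gtpbp4 and Krr1 (0.71, adjusted p = 0.036), where 3.46% of gene values were called higher. The Krr1 call was lost in 10 of 12 fits that left out 1 library (it held without parental WT replicate 3 or WT clone replicate 3), and with KO1 alone, the WT clone alone, summed cultures or DESeq2.

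**Figure D5:**
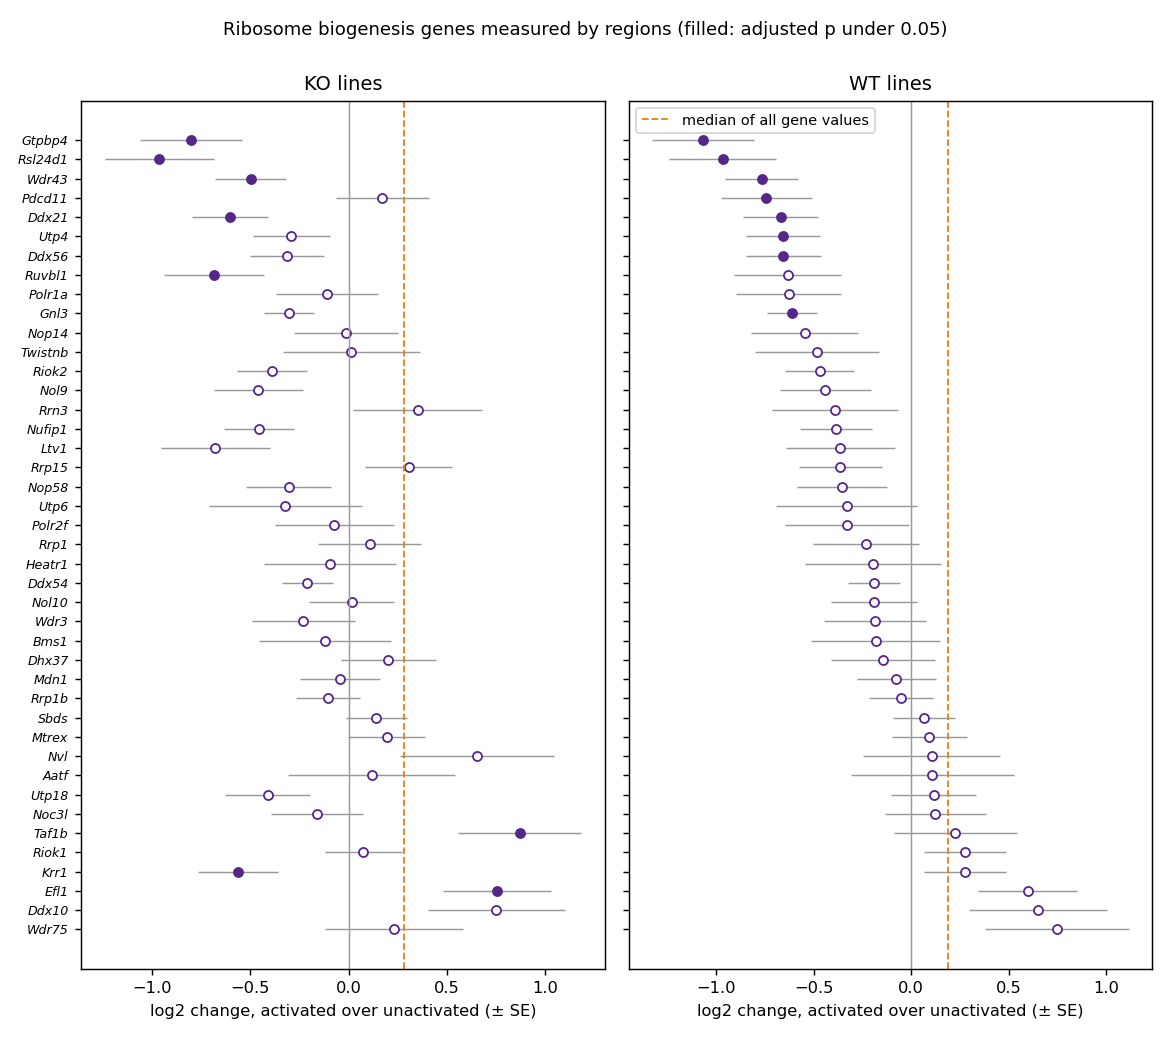
Log2 change on activation with its SE for the 42 tested ribosome biogenesis genes in KO lines (left) and WT lines (right), ordered by the change in WT; filled points have adjusted p under 0.05 and the dashed line is the median of all gene values (0.28 and 0.19). In WT lines 30 of 42 lie below 0, and in KO lines 26.

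Of 50 other known MYC targets listed, 18 were tested. On activation 2 were called higher and 5 lower in KO lines, with a median log2 change of -0.18, where 24.1% of gene values were called higher and 4.24% lower. In WT lines 1 was called higher and 7 lower, with a median of -0.35, where 16.4% and 5.41% were. Slc3a2, the heavy chain of amino acid transporters, changed by -1.09 in KO lines and -1.37 in WT lines, and Slc16a1, a lactate carrier, by -1.09 and -1.08. C1qbp (-0.75 and -0.63) and Hspd1, a mitochondrial chaperonin (-0.69 and -0.66), were also lower in both. Ccnd2, cyclin D2, was called higher, with log2 changes of 2.05 in KO lines and 1.57 in WT lines. It was lower in KO than in WT in both states (-1.25 in activated and -1.73 in unactivated cells). Mthfd1, of folate metabolism, was higher in activated KO lines (1.12; 6.34% of gene values were) and Tfap4, a transcription factor, lower (-0.86).

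Among 14 genes of the MYC network, 7 were tested. Besides Myc, the only call was Fbxw7, the ubiquitin ligase subunit that marks MYC for breakdown. It was higher on activation in KO lines (1.14, adjusted p = 0.000154), where 24.1% of all gene values were called higher. In WT lines Fbxw7 had 1.75 ± 0.310 CPM in activated cells against 1.31 ± 0.535 in unactivated cells, not called. A difference in the activation effect between genotypes was called for 0 of the 7 genes.

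Scaling set how far the activation results lean. With factors taken from gene values alone the median gene value shifted by -0.30 in KO lines and -0.20 in WT lines, to about 0. Called genes then split 579 higher and 491 lower in KO lines, in place of 1086 and 191, and 519 and 485 in WT lines, in place of 740 and 244. Against that median Myc was at -1.53 in KO lines and -1.55 in WT lines, Gnl3 (-0.61) and Nop58 (-0.62) were called in KO lines, and Polr1a (-0.84) in WT lines. For KO over WT in activated cells the split was 238 higher and 156 lower, in place of 286 and 105, and for the difference in activation 19 and 11, in place of 19 and 6.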

How the data were processed

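RNA-seq of 24 CH12 cultures was analysed. Per the submitters' processing notes kallisto 0.43.0, the build GRCm38.p5 and DESeq2 were used. The deposited tables hold estimated counts and TPM for 171152 targets per library, of which 121400 are transcripts and 49745 numbered genome regions; the authors' TPM values were not used. Since the files pair no transcript with a gene, a gene value here is the sum of the regions lying wholly inside exactly 1 RefSeq gene of GRCm38.p6, and it misses reads that the pseudoaligner gave to transcripts. This replaces a count of the whole gene. Estimated counts were rounded to whole numbers, filtered with edgeR's filterByExpr by group, and scaled by TMM factors from the whole filtered table; CPM use the effective library size. Tests were edgeR 4.0.16 quasi-likelihood tests (limma 3.58.1, R 4.3.3) on 8 group means, with contrasts of both lines of a genotype averaged, Benjamini-Hochberg adjustment and a threshold of 0.05. The 95% intervals were built from the SE and a t distribution with 16 residual degrees of freedom. At the margin they need not match the edgeR p-values. DESeq2 1.42.0 served as an alternative, as did other scalings, no filter, a replicate block, single lines, summed cultures and leaving out each library. Tables were made in Python 3.11.15 with pandas 2.3.3. Depth was 29.0 to 34.1 M counts per library. Only the fit of gene values for KO over WT in unactivated cells was run on simulated data. Changes were planted there in genes above the median level. The other contrasts, the fit of single targets and genes of low level were not covered. The members and lists were chosen with earlier results of these data known. Genes named in full were the members; of each list, up to 8 other genes called with the smallest adjusted p per comparison; and the 5 gene values with the highest Pearson r to Myc or to the distal stretch, at a mean of at least 5 CPM and without Gm or Rik names.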

Additional observations from a re-analysis of the deposited data

Results flagged for a closer look

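In 2 of 28 groups of 6 libraries the highest or lowest library stood farther from the others than a gap test allows; chance gives about 1 in 20. Wdr43 was at 1.457 CPM in KO2 activated replicate 2, the highest of the 6 activated KO libraries. Gnl3 was at 3.612 CPM in parental WT activated replicate 1, the highest of the 6 activated WT libraries.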

How the results depend on the processing

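The log2 changes of Myc on activation ran over all alternatives that leave out no single library from -1.53 to -1.21 in KO lines and -1.55 to -1.09 in WT lines, and those of the distal stretch, KO over WT, from 1.17 to 1.34 in activated and 1.64 to 1.81 in unactivated cells; each kept its call. The cause was not tested for any change that follows. Below, "gene values" and "ribosome genes" are counts of calls, higher then lower, with the reported count in brackets.

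With relative log expression scaling 1 ribosome gene was higher on activation in KO lines [2]. With factors from gene values or regions alone, the activation change of the distal stretch in WT lines was -0.50, gene values were 485 lower in WT lines [244] and 579 and 491 in KO lines [1086 and 191], and ribosome genes 16 lower in WT lines [8] and 0 and 16 in KO lines [2 and 6]; Myc, KO over WT activated, was -0.021 [0.06], the Nop58 difference in activation -0.066 [0.05], and 11 gene values had a lower activation effect [6]. With no filter, ribosome genes on activation were 1 higher in WT lines [0] and 0 and 3 in KO lines, and gene values differing in activation 56 and 23 [19 and 6]. DESeq2 gave 0 ribosome genes higher on activation in KO lines [2], 0 higher in unactivated KO [1], 0 lower in activated KO [1], and 43 gene values with a higher activation effect [19].

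The labels do not say that replicate numbers pair libraries. Same-numbered pairs correlated at -0.51 to 0.45 (median 0.11; 45 of 84 over 0.1), other pairs at -0.55 to 0.64 (median -0.06; 24 of 168 over 0.1), and 17 of 24 libraries correlated best with their own number, a hint of shared structure from the data, not the design. The replicate block gave 34 and 11 gene values differing in activation [19 and 6]. Without the 2 libraries least like their own group, an alternative chosen after seeing the data, Myc was 0.21 in unactivated KO over WT [-0.07] and its difference in activation -0.15 [0.13]; 1 ribosome gene was higher on activation in WT lines and 0 higher in unactivated KO.

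With cultures summed per line, ribosome genes were 2 lower on activation in KO lines [6], 0 and 0 in unactivated KO [1 and 1] and 0 lower in activated KO [1]; gene values were 173 higher in activated KO [286], and 0 and 0 differed in activation. Gtpbp4 then lost its calls, and Wdr43 its call on activation in KO lines (-0.54); Wdr43 lost it also with no filter (-0.53).

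With KO1 alone, unactivated KO over WT gave Wdr43 -0.02 [0.13], 89 and 68 gene values [156 and 140] and 0 and 0 ribosome genes; activated, Gtpbp4 was 0.21, gene values 134 and 45 [286 and 105] and ribosome genes 0 lower. On activation Polr1a was 0.021 [-0.11], the distal stretch -0.73, gene values 610 and 115 and ribosome genes 0 and 0; the Nop58 difference was -0.087 and 3 and 3 gene values differed. With KO2 alone, Gnl3 was 0.032 unactivated [-0.08], gene values 102 and 74, 1 ribosome gene was higher in activated KO [0], and on activation the distal stretch was -0.63, gene values 588 and 95 and ribosome genes 0 and 1; the Gtpbp4 difference was -0.49 [0.26]. Against parental WT alone, gene values were 75 and 75 unactivated and 136 and 67 activated, Myc -0.043 activated and ribosome genes 0 lower; on activation gene values were 402 and 117, 1 ribosome gene was lower, and 0 and 0 gene values differed. Against the WT clone alone, ribosome genes were 0 higher unactivated and 0 lower activated; on activation gene values were 432 and 135 and 3 ribosome genes were lower. Without its largest region Polr1a changed by 0.15 on activation in KO lines.

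Leaving out 1 library at a time, Myc ranged on activation from -1.30 to -1.09 in KO lines and -1.46 to -1.20 in WT lines, KO over WT from -0.01 to 0.15 activated and -0.21 to 0.094 unactivated, and its difference from -0.035 to 0.27. The distal stretch ranged on activation from -0.75 to -0.61 and -0.39 to -0.15, KO over WT from 1.19 to 1.40 and 1.64 to 1.82, and its difference from -0.54 to -0.29. Polr1a on activation in KO lines ranged from -0.47 to 0.028, and the differences of Nop58 from -0.12 to 0.17 and of Gtpbp4 from -0.015 to 0.53. Ribosome genes on activation were 0 to 2 higher and 2 to 6 lower in KO lines, 0 to 1 and 7 to 9 in WT lines, KO over WT 0 to 1 lower activated and 0 to 1 higher and 1 lower unactivated. Gene values on activation were 865 to 1031 and 163 to 190 in KO lines and 614 to 947 and 209 to 256 in WT lines, KO over WT 199 to 273 and 84 to 112 activated and 109 to 178 and 101 to 179 unactivated, and 10 to 32 and 4 to 8 differed in activation. Genes read from under 60 counts per library (Wdr43, Nop58, Polr1a) are limited by depth.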
